A study of Mus musculus with 93 samples.

Results

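Bone morphogenetic protein (BMP) signalling was followed through 10 of the 24514 genes in the count table, chosen by name: the ligands Bmp2, Bmp4, Bmp5, Bmp7 and Bmp10, the type I receptors Bmpr1a, Bmpr1b and Acvr1, the type II receptor Bmpr2, and the secreted antagonist Nog (Noggin). All 10 were found. The 93 libraries were made from pools of 10 sorted cells and fell into 4 groups. In vivo cells came from mouse embryos that carried the alleles Hcn4-GFP, Tbx1-Cre and Ai9 together. Their sample titles name embryonic day 8.5, whereas the extraction protocol and the paper's methods both give an earlier day. That earlier day falls within the range that the paper gives for the cardiac crescent stage, when both heart fields appear. In vitro cells came from spheroids at day 5.5 of differentiation, grown from embryonic stem cells derived from blastocysts with the same 3 alleles. GFP+ cells (5 embryo and 38 spheroid libraries) were sorted for the Hcn4-GFP reporter, which marks the first heart field (FHF). RFP+ cells (4 embryo and 46 spheroid libraries) were sorted for the red Ai9 label, which stays on in every descendant of a cell that once expressed the Tbx1-driven Cre, and stand for the second heart field (SHF) lineage. Spheroids had been induced with recombinant proteins of which Bmp4 was part of the choice offered by the protocol; the combination behind the sequenced wells was not given in the sources used here. Wells are not tied to embryos or to separate differentiations by the labels, so n counts wells, and p-values measure only the spread between wells, which may be technical.

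BMPs are secreted dimers that bring a type II receptor kinase together with a type I receptor kinase, and the activated type I receptor phosphorylates Smad1, Smad5 and Smad9, which enter the nucleus with Smad4 and switch on targets such as the Id genes. Noggin and other secreted antagonists bind the ligands outside the cell. In the early embryo, BMPs from tissue around the anterior mesoderm are known inducers of cardiac fate, and within the heart Bmp2, Bmp4 and Bmp10 have known roles in the atrioventricular canal, the outflow tract and the trabeculae, respectively.

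Levels are given as CPM, the read count scaled to the size of its library with TMM factors. Between 712732 and 2525460 reads per library were counted on genes in embryo GFP+ cells, and between 1246546 and 1479957 in embryo RFP+ cells. Totals in spheroids ran from 445071 to 5658882, except for the GFP+ library of well C9 with 6288. Embryo GFP+ libraries held 6189 to 8302 detected genes and embryo RFP+ libraries 10263 to 13052, and the biological coefficient of variation was 0.575 in the former against 0.333 in the latter, 0.319 in spheroid GFP+ and 0.241 in spheroid RFP+ libraries. In 7 pairs of spheroid RFP+ wells in neighbouring plate columns the log2 values correlated at r of 0.977 to 0.994, above every other well pair (0.971), and these were kept as separate wells. Spheroid populations occupied different plate columns, and embryo GFP+ libraries lay in rows A to E and embryo RFP+ libraries in rows F to H, so population cannot be told apart from plate column in spheroids or from plate row in embryos. Within each population embryo and spheroid libraries lay in different plate columns, so source cannot be told apart from plate column either. Markers of cardiomyocytes (7 genes, all detected in each group) summed to between 16209 and 48219 CPM in embryo GFP+ libraries, 769 to 1749 in embryo RFP+ libraries, 0 to 955 in spheroid GFP+ wells and 7.94 to 106 in spheroid RFP+ wells. The spheroid median of this sum was lower in GFP+ wells (30.5 CPM) than in RFP+ wells (41.8). Single genes went the other way: 3 of the 7 had enough reads to be tested in spheroids. Of these, 2 were higher in GFP+ wells at an edgeR adjusted p under 0.1 and 0 in RFP+ wells. Their median log2 fold change of RFP+ over GFP+ was −1.44. The SHF markers (5 genes) summed to 53.6 to 286 CPM in embryo GFP+ and 153 to 291 in embryo RFP+ libraries, with Tbx1 itself at 0 in all 5 embryo GFP+ libraries. In spheroids the SHF markers summed to 0 to 194 CPM in GFP+ wells (median 80.5) and 63.5 to 167 in RFP+ wells (median 103). These spheroid ranges overlapped, so the sum did not separate single wells of the 2 populations. Tested singly, 3 of the 5 SHF genes had enough reads in spheroids. At an edgeR adjusted p under 0.1, 2 were higher in RFP+ and 1 in GFP+ wells (median log2 fold change 1.13). For both marker lists these counts stand against 77.9% of all genes tested in spheroids that passed this threshold.

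Both ligands that separated the embryo populations are shown here by the sequence upstream of their transcription start, because each had its CPM in every GFP+ library above every RFP+ library. Coordinates and letters are from the RefSeq promoter table on GRCm38.p6, which matched 7 of the 10 genes, and the 250 bases before the start are printed 5′ to 3′ on the gene's own strand. Capitals mark each match to the GATA factor motif AGATAA; the searched set also held TNAAGTG (Nkx2-5), GGTGTGA (T-box) and TATAAA, each on both strands.
Bmp10, chr6:87428744-87428993, plus strand: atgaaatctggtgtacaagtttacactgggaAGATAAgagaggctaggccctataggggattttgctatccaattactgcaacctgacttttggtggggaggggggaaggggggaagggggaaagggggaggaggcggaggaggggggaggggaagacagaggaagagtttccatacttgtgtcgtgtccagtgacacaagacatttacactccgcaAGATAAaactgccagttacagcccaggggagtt
Bmp4, chr14:46390670-46390919, minus strand: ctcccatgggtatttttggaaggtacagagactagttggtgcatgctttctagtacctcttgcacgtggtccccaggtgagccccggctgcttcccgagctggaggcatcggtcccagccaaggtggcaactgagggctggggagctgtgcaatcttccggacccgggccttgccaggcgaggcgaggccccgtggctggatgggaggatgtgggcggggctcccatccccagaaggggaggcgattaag

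The Bmp10 window held AGATAA at 2 places, beginning 219 and 33 bases before the start and not overlapping each other, and no other searched motif. Among all 32851 promoters of the table, which span 250 bases before to 50 after the start, 11.2% held AGATAA, 11.5% TNAAGTG, 3.98% GGTGTGA and 13.6% TATAAA, and 1.13% held AGATAA at 2 or more places. The Bmp4 window matched none of the searched letters. The windows also differed in composition, with 52% G or C and 3 CpG dinucleotides for Bmp10 against 63.2% and 11 for Bmp4. A match of letters describes the window and shows no binding.

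Bmp4 was the member called between FHF and SHF cells in both sources. This ligand is required for mesoderm formation and has known roles in the outflow tract. The gene lies on chromosome 14 from 46383520 to 46390669 on the minus strand (GRCm38, GENCODE M21), and 89 of its 2248 exon bases also belong to the gene Gm15217 on the other strand. In embryo GFP+ cells, it was measured at 324, 133, 110, 204 and 156 CPM in wells A12, B12, C12, D12 and E12. RFP+ cells of the embryos gave 45.9, 85.7, 18.6 and 27.2 CPM in wells F12, G11, G12 and H11. All 5 GFP+ libraries lay above all 4 RFP+ libraries. Markers of other cell types also differed between these libraries: from GFP+ to RFP+ cells, endoderm markers (8 genes) summed to 0 to 21.5 against 10.0 to 478 CPM, endothelial markers (6 genes) to 0 to 89.3 against 55.7 to 232, blood markers (6 genes) to 0 to 1.07 against 0 to 1154, and epicardial and juxtacardiac markers (5 genes) to 119 to 346 against 44.7 to 184. At 0 in all GFP+ libraries were 7 of the 8 endoderm markers, with Sox17 and Foxa2, 4 of the 6 endothelial markers, with Pecam1 and Cdh5, and 4 of the 6 blood markers. Gata1 was at 0 in RFP+ libraries as well, and the blood sum there had a median of 0.703 CPM. GFP+ libraries held fewer detected genes, as given above, and the part of these cells in the embryo differences was not tested. The mean was 185 ± 84.9 CPM (SD, n = 5) in GFP+ and 44.4 ± 29.8 (SD, n = 4) in RFP+ libraries, and the fitted log2 fold change of RFP+ over GFP+ was −2.09 with an SE of 0.60 (4.27-fold higher in GFP+; edgeR quasi-likelihood test with Benjamini-Hochberg adjustment, adjusted p = 0.0677, called under 0.1). The two-sided exact permutation p was 0.0159, which is the smallest that 5 against 4 libraries allow. Since each library pools cells, more Bmp4-expressing cells and more Bmp4 RNA per cell cannot be told apart.

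In spheroids Bmp4 was again higher in GFP+ cells. The 38 GFP+ wells ran from 0 to 104 CPM with a median of 41.1, and the 46 RFP+ wells from 0 to 45.3 with a median of 7.26. The ranges overlapped, with 4 RFP+ wells at 0 and C9 the only GFP+ well at 0. Without C9, the lowest GFP+ well stood at 5.99 CPM. The log2 fold change was −2.15 with an SE of 0.24 (4.44-fold higher in GFP+; edgeR, adjusted p = 1.5e-13), and the permutation p of 2.0e-05 was the smallest that 100000 resamples can give. Among spheroid RFP+ wells the SD of 9.46 CPM was close to the mean of 9.88. Surface ectoderm and amnion markers (6 genes) summed to 953 to 6472 CPM in spheroid GFP+ wells and 46.5 to 1052 in RFP+ wells, pluripotency markers (5 genes) to 35.1 to 1551 against 4.22 to 551, and endoderm markers (8 genes) to 89.4 to 556 against 13.9 to 716. The part of these cells in the spheroid differences was not tested.

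**Figure D1:**
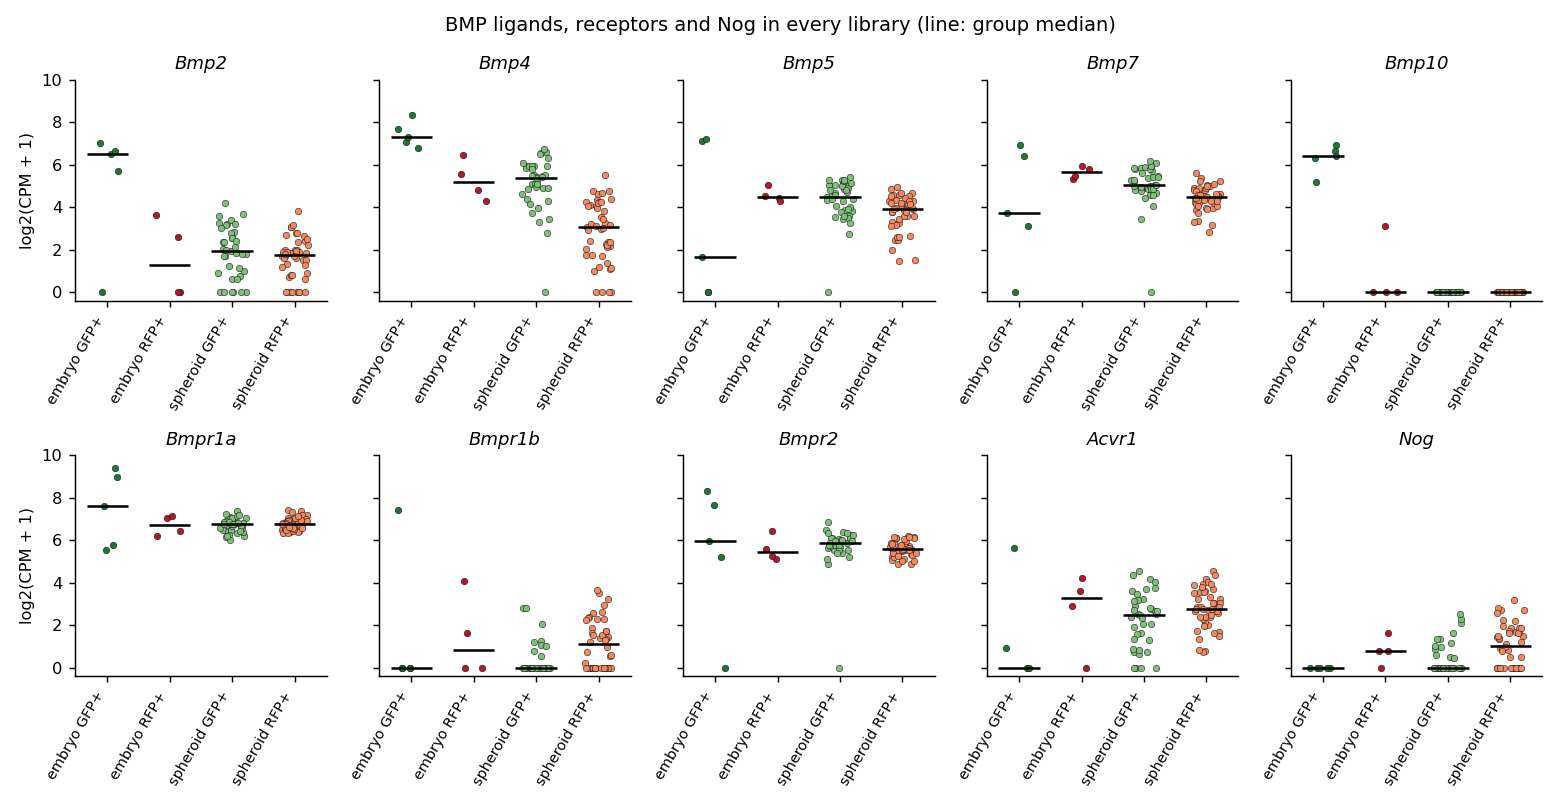
Level of each of the 10 BMP genes as log2(CPM + 1) in every library, in 4 groups (dark green and dark red, embryo; light green and orange, spheroid), with a line at the group median. Bmp10 is seen in all 5 embryo GFP+ libraries, in a single embryo RFP+ library and in no spheroid well, and Bmp4 is higher in GFP+ than in RFP+ cells of both sources.

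Bmp10 was read in all 5 embryo GFP+ libraries and in 1 of the 4 embryo RFP+ libraries. It encodes a ligand known for its part in the growth of trabecular myocardium and lies on chromosome 6 from 87428994 to 87437677 on the plus strand. The 5 GFP+ libraries held 119, 99.9, 36, 83.1 and 78.1 CPM (111, 231, 29, 178 and 73 reads), with a mean of 83.3 ± 31.0 (SD, n = 5). Of the RFP+ libraries, G11 held 7.73 CPM from 11 reads, and F12, G12 and H11 had none. No RFP+ library reached the lowest GFP+ library. The log2 fold change was −5.38 with an SE of 1.41 (41.8-fold higher in GFP+; edgeR, adjusted p = 0.0766), and the exact permutation p was again the smallest possible, 0.0159. The fitted fold rests on the 11 reads of G11, because no other RFP+ library had a read. In spheroids no read was counted on Bmp10 in any of the 38 GFP+ or 46 RFP+ wells, which allows up to 0.042 and 0.0396 CPM from 3 counts over each group. The cardiomyocyte markers moved the same way as Bmp10, with the sums given above, and their part in its difference was not tested.

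Of the 10 genes, 7 passed the filter on low counts in embryos and 2 (Bmp4 and Bmp10) were called, both higher in GFP+ cells. Over all 8503 genes tested, 10.1% were called in either direction, 3.88% with GFP+ cells higher and 6.21% with RFP+ cells higher. Bmp4 and Bmp10 were also the members with no overlap between populations, as were 3.6% of the genes tested in that direction. The median log2 fold change of the 7 was −1.51, against 0.09 for all genes tested. This median depends on the filter, which Bmp2 and Bmp10 passed through their GFP+ counts, with 23 and 11 reads over the RFP+ libraries. Bmpr1b, Acvr1 and Nog fell under it, and without it their log2 fold changes were −2.81, −0.15 and 3.48, none of them called. Either call depended on single libraries, and Bmp4 was also not called without the filter on low counts (edgeR adjusted p = 0.101). Bmp4 was not called without A12, F12, G12 or H11 (edgeR adjusted p = 0.131, 0.163, 0.173 and 0.220) and Bmp10 not without A12, B12, F12, G12 or H11 (0.104, 0.104, 0.184, 0.176 and 0.204), while both remained higher in GFP+ cells in each case.

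The other ligands of the embryo were uneven between libraries of the same group. Bmp2, which drives formation of the atrioventricular canal, stood at 88.3, 51.5, 99.2, 130 and 0 CPM in GFP+ wells A12 to E12 and at 0, 11.2, 0 and 5.01 CPM in the RFP+ wells F12, G11, G12 and H11. Well E12 lacked Bmp2 although it held 146 reads on Bmp4, so the populations overlapped at 0 while the other 4 GFP+ libraries lay above all RFP+ libraries. The log2 fold change of −4.18 (SE 1.59) did not pass the test (edgeR, adjusted p = 0.268; exact permutation p = 0.0952), whereas DESeq2 called it (adjusted p = 0.0475). Bmp2 is on chromosome 2 from 133552159 to 133562885 on the plus strand.

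Bmp5 and Bmp7, related ligands with overlapping roles in the early heart, were spread evenly over embryo RFP+ libraries and unevenly over GFP+ libraries. For Bmp5 the GFP+ wells A12 to E12 held 2.15, 138, 0, 0 and 146 CPM, and the RFP+ wells 20.4, 21.8, 18.6 and 31.5. Bmp7 gave 7.54, 83.9, 0, 12.1 and 120 CPM in the same GFP+ wells and 55.4, 38.7, 43.1 and 60.9 in RFP+ wells. B12 and E12 were the high wells for both genes, and C12 had no read on either. In GFP+ cells the group means (57.2 ± 77.5 CPM for Bmp5 and 44.7 ± 53.9 for Bmp7; SD, n = 5) were therefore far from the medians of 2.15 and 12.1 CPM. Direction depended on the summary for both: the fitted log2 fold change was −1.36 (SE 1.68) for Bmp5 and 0.09 (SE 1.33) for Bmp7, while the mean log2 CPM was higher in RFP+ cells by 1.27 and 1.56, and none of these passed (edgeR, adjusted p = 0.869 and 0.994; exact permutation p = 0.492 and 0.270). For Bmp7 the sign also turned with DESeq2 size factors (−0.04). Bmp5 shares 1878 of its 4025 exon bases with an antisense gene in the annotation, and the strand setting of the counting was not stated.

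**Figure D2:**
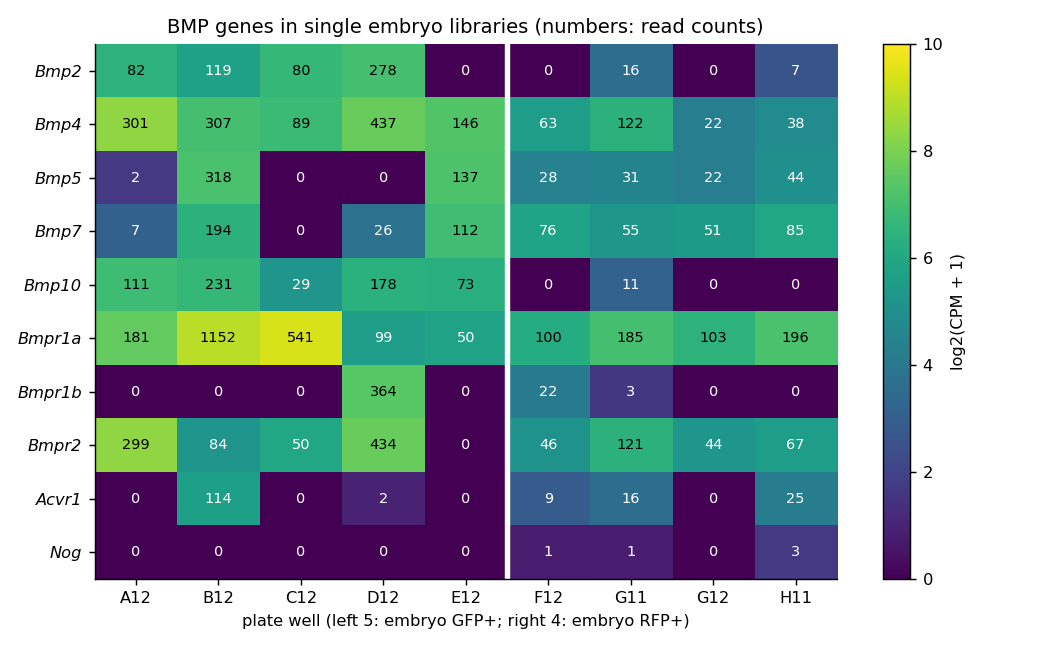
Read counts (numbers) and log2(CPM + 1) (colour, 0 to 10) of the 10 genes in each of the 9 embryo libraries, with 5 GFP+ wells to the left of the white line and 4 RFP+ wells to its right. Bmp4 and Bmpr1a were detected in all 9 wells, and other genes went from 0 to high counts among GFP+ wells, such as Bmpr1b with 364 reads in D12 and 0 in the other 4.

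In spheroids both Bmp5 and Bmp7 were higher in GFP+ cells, by less than Bmp4. Bmp5 had a median of 21.3 CPM in GFP+ wells (0 to 42.4) and 14.1 in RFP+ wells (1.74 to 30.2), a log2 fold change of −0.71 (SE 0.16; 1.63-fold; edgeR, adjusted p = 4.3e-05; permutation p = 0.00266). Bmp7 had a median of 31.9 CPM in GFP+ wells (0 to 72.2) and 21.3 in RFP+ wells (6.0 to 47.0), a log2 fold change of −0.82 (SE 0.13; 1.76-fold; edgeR, adjusted p = 9.0e-09; permutation p = 0.00028). Ranges of the populations overlapped widely for both, and the GFP+ well at 0 was C9 each time. Bmp2 was low in spheroids, with medians of 2.88 CPM in GFP+ wells (0 to 17.0, 6 of 38 at 0) and 2.35 in RFP+ wells (0 to 12.9, 8 of 46 at 0). It fell under the filter on low counts, and its difference did not pass the permutation test (p = 0.220), although DESeq2, which filters otherwise, gave an adjusted p of 0.0746.

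No receptor was called between the embryo populations, and Bmpr2 was called in spheroids. Bmpr1a, the type I receptor needed for cardiac mesoderm, was read in every library. In embryo GFP+ wells A12 to E12 it stood at 195, 498, 671, 46.2 and 53.5 CPM, and in RFP+ wells at 72.9, 130, 87.0 and 140. The GFP+ libraries thus lay on both sides of the RFP+ libraries, and the log2 fold change of −1.51 (SE 0.71) did not pass (edgeR, adjusted p = 0.358; exact permutation p = 0.460). Spheroid wells were even, with medians of 107 CPM in GFP+ (64.6 to 168) and 110 in RFP+ cells (79.5 to 174). Their log2 fold change was 0.04 with an SE of 0.07 (edgeR, adjusted p = 0.841; permutation p = 0.179), and the SDs of 24.0 and 23.5 CPM were the smallest relative to the mean among the members. Bmpr1a shares 290 of its 6351 exon bases with an antisense gene.

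Bmpr2, the type II receptor that pairs with these type I receptors, gave 322, 36.3, 62.0, 203 and 0 CPM in embryo GFP+ wells A12 to E12 and 33.5, 85.0, 37.1 and 48.0 CPM in RFP+ wells. Well E12 again had no read, and A12 and D12 were above all RFP+ libraries. The log2 fold change was −1.30 (SE 1.13; edgeR, adjusted p = 0.749; exact permutation p = 1). In spheroids its median was 58.6 CPM in GFP+ wells (0 to 117) and 48.0 in RFP+ wells (28.4 to 73.1), a called but small log2 fold change of −0.31 (SE 0.08; 1.24-fold; edgeR, adjusted p = 0.000592). The permutation test on log2 CPM gave p = 0.564 with the shallow well C9, which had no Bmpr2 read, and p = 0.00176 without it.

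Acvr1 and Bmpr1b, the remaining type I receptors, were low. For Acvr1 the embryo GFP+ wells held 0, 49.3, 0, 0.934 and 0 CPM and the RFP+ wells 6.56, 11.2, 0 and 17.9, so that nearly all GFP+ reads came from B12. Spheroid medians were 4.68 CPM in GFP+ wells (0 to 22.7) and 5.77 in RFP+ wells (0.67 to 22.4), with a log2 fold change of 0.28 (SE 0.26; edgeR, adjusted p = 0.332). The permutation p was 0.0398, and 0.0628 without C9. Bmpr1b was read in 1 of 5 embryo GFP+ libraries (D12, 170 CPM) and in 2 of 4 RFP+ libraries (F12, 16.0 CPM; G11, 2.11 CPM). In spheroids it was read in 9 of 38 GFP+ and 28 of 46 RFP+ wells, at means of 0.562 ± 1.45 and 2.03 ± 2.82 CPM (SD). It fell under the filter, and the permutation test found it higher in RFP+ wells (p = 0.00058), as did edgeR without the filter (log2 fold change 1.85, adjusted p = 0.00139).

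Nog, which encodes the antagonist that binds BMP ligands outside the cell, differed in spheroids in the direction opposite to Bmp4, Bmp5 and Bmp7. It was read in 13 of 38 GFP+ and 31 of 46 RFP+ wells, at means of 0.599 ± 1.17 and 1.67 ± 1.93 CPM (SD), with at most 8.27 CPM in any well. The permutation test found it higher in RFP+ wells (p = 0.001), as did edgeR without the filter (log2 fold change 1.36, adjusted p = 0.011). In embryos no read was counted on Nog in the 5 GFP+ libraries, and 1, 1, 0 and 3 reads in RFP+ wells F12, G11, G12 and H11. These 5 reads, 3 of them in H11, were too few to set a fold, and the exact permutation p was 0.0952. Nog has a single exon and lies on chromosome 11 from 89300638 to 89302332 on the minus strand.

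Over the spheroids, 6 of the 10 genes passed the filter and 4 were called (Bmp4, Bmp5, Bmp7 and Bmpr2), all higher in GFP+ cells. This has to be read against the 77.9% of 9940 genes tested that were called in either direction, 40.1% with GFP+ cells higher and 37.8% with RFP+ cells higher. The median log2 fold change of the 6 was −0.51, against −0.02 for all genes tested. It leaves out Bmp2, Bmpr1b and Nog, which fell under the filter and without it stood at −0.55, 1.85 and 1.36. The 4 calls were the same in direction and all past the threshold with the 7 near-identical well pairs summed, with plate row as a covariate and without C9. DESeq2 called 7 members, adding Bmp2 (higher in GFP+), Bmpr1b and Nog (higher in RFP+). The share of all genes that DESeq2 called in spheroids is not given here, so this count cannot be read as particular to the members.

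**Figure D3:**
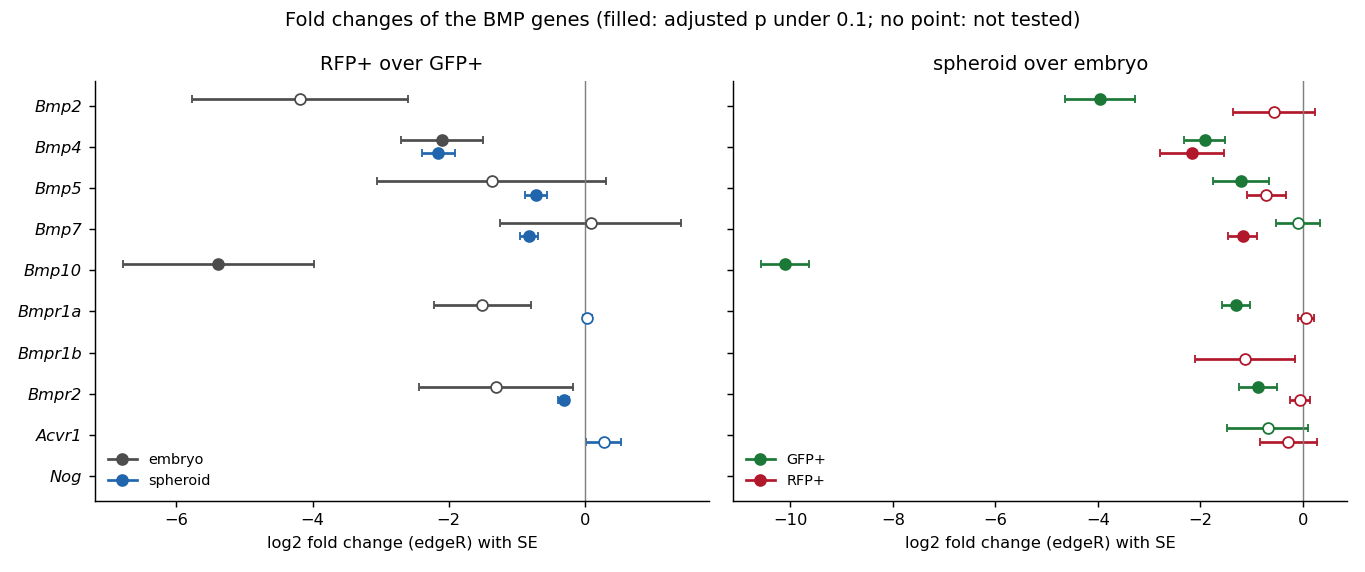
Log2 fold change with its SE (bars) of RFP+ over GFP+ cells (left; grey, embryo; blue, spheroid) and of spheroid over embryo cells (right; green, GFP+; red, RFP+), with filled points for adjusted p under 0.1 and no point where the gene fell under the filter. Bmp4 lies near −2 in both sources, and the fitted value for Bmp10 on the right, −10.11, rests on spheroid wells without a read.

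Whether the population difference itself differed between embryo and spheroid was tested on the 5 genes that passed the filter in both. None was called (edgeR log2 fold changes and their SEs, 7 degrees of freedom, Benjamini-Hochberg), none had an unadjusted p under 0.05, and 5.68% of the 8182 genes tested were called. For Bmp4 the difference, spheroid minus embryo, was −0.06 with an SE of 0.65 (edgeR, adjusted p = 0.993), and for Bmpr1a it was 1.54 with an SE of 0.72 (unadjusted p = 0.0678 from the edgeR values). On these 5 genes an interaction term in a single edgeR fit over the 4 groups called Bmpr1a (1.52, adjusted p = 6.8e-05) and Bmpr2 (1.02, adjusted p = 0.0405), and limma voom with a weight per group called none (adjusted p from 0.252 to 0.799). The 5.68% is the share of the separate fits. Over all genes the interaction term, and to a lesser degree voom, called many more, with the counts given under the processing settings below. Both models also tested members outside the 5, of which the interaction term called 2 more and voom called Bmp2 (4.13, adjusted p = 0.0625) and Bmp10 (6.72, adjusted p = 1.1e-10). With separate edgeR fits, the SEs of Bmp5, Bmp7 and Bmpr2, between 1.14 and 1.69, left room for differences of several-fold.

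How far spheroid cells matched their embryo counterparts was compared within each population, on the same libraries as the contrasts above. In GFP+ cells all 6 calls among 8 genes tested were higher in embryos. Of 11822 genes tested 68% were called, 19.7% with embryos higher and 48.3% with spheroids higher. Bmp2, Bmp4 and Bmp10 were the members called by edgeR, by DESeq2, by voom and with each embryo library left out in turn. Bmp2 had a median of 88.3 CPM in embryos and 2.88 in spheroids, a log2 fold change of −3.96 (SE 0.68; edgeR, adjusted p = 7.7e-09; permutation p = 0.00044), although E12 in the embryos was at 0. For Bmp4 all 5 embryo libraries lay above the highest spheroid well (110 against 104 CPM), a log2 fold change of −1.92 (SE 0.39; edgeR, adjusted p = 3.2e-06; permutation p = 2.0e-05). Bmp10 was at least 1925-fold higher in embryos, taking 3 counts over all spheroid GFP+ wells as the floor. Bmp4 and Bmp10 were the members whose libraries did not overlap, as were 2.72% of the genes tested with embryos higher. By voom with a weight per group their adjusted p was 0.00727, 0.0445 and 7.2e-21. From embryo to spheroid GFP+ cells, 6 of 6 cardiomyocyte markers tested were lower in spheroids (edgeR, median log2 fold change −6.97). Higher in spheroids were 5 of 5 pluripotency (8.57), 3 of 3 endoderm (8.94) and 3 of 3 surface ectoderm and amnion markers tested (4.28). However, 4 of the 5 pluripotency and 7 of the 8 endoderm markers were at 0 in all embryo GFP+ libraries. A marker at 0 there passes the filter only through its spheroid counts and can only come out higher in spheroids. Counts and folds of these lists therefore describe presence in spheroids and are no test of direction. Summed levels in embryo GFP+ libraries were 0 to 0.433 CPM for pluripotency and 288 to 489 for surface ectoderm and amnion markers. The latter sum came from Krt8 and Krt18 alone, since Tfap2a, Krt5, Wnt6 and Grhl3 were at 0 in those libraries. The part of such cells in the differences between sources was not tested.

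The calls on Bmp5, Bmpr2 and Bmpr1a in GFP+ cells were weaker. Bmp5 (−1.21, SE 0.55; edgeR, adjusted p = 0.0319) was not called without B12 or E12 (0.394 and 0.368), its embryo median of 2.15 CPM was below the spheroid median of 21.3, and it turned to higher in spheroids by mean log2 CPM (1.02, permutation p = 0.160) and by voom (1.92, adjusted p = 0.413). Bmpr2 (−0.88, SE 0.37; edgeR, adjusted p = 0.0228) was not called without A12 or D12 (0.564 and 0.160), and it turned likewise by mean log2 CPM (0.25, permutation p = 0.449) and by voom (0.51, adjusted p = 0.605). Bmpr1a (−1.30, SE 0.28; edgeR, adjusted p = 1.3e-05; permutation p = 0.0368) was not called by voom (adjusted p = 0.423). Acvr1 was not called (−0.69, SE 0.80; edgeR, adjusted p = 0.427) but turned to 3.99 (adjusted p = 0.0032) without B12. Over all genes the median log2 fold change was 0.67 in favour of spheroids, and DESeq2 size factors lowered it by 0.45, which took the share of calls that were higher in spheroids from 71.1% to 57.4%; 6 members were called with either scaling.

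Within RFP+ cells, Bmp4 and Bmp7 were called among 8 genes tested, both higher in embryos. Of 11147 genes tested 42.6% were called, 20.1% with embryos higher and 22.5% with spheroids higher. Bmp4 went from a median of 36.6 CPM in embryos to 7.26 in spheroids (log2 fold change −2.16, SE 0.63; edgeR, adjusted p = 0.000919; permutation p = 0.00064). Bmp7 went from 49.2 to 21.3 CPM (−1.18, SE 0.28; edgeR, adjusted p = 0.000183; permutation p = 4.0e-05), and its highest spheroid well at 47.0 CPM overlapped the embryo range of 38.7 to 60.9. The receptors Bmpr1a (0.05, SE 0.16) and Bmpr2 (−0.06, SE 0.20) did not pass, nor did Acvr1, Bmpr1b, Bmp2 or Bmp5 (edgeR, adjusted p from 0.117 to 0.859 over these 6). Bmp10 rested on the 11 reads of embryo well G11.

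Per kilobase of exon, which allows genes to be compared with each other, Bmp4 had the highest mean in 3 of the 4 groups, although in embryo RFP+ cells Bmpr1a had the higher median (17.1 against 16.3). In embryo GFP+ cells the order by mean was Bmp4 (82.5 CPM per kb), Bmpr1a (46.1), Bmp2 (20.7), Bmp10 (18.6), Bmp5 (14.2), Bmp7 (11.1), Bmpr2 (6.93), Bmpr1b (5.70), Acvr1 (2.08) and Nog (0), and the libraries of every pair of neighbours overlapped. Embryo RFP+ cells had Bmp4 (19.7), Bmpr1a (16.9), Bmp7 (12.3) and Bmp5 (5.73) first, and only Bmp7 and Bmp5 among neighbours did not overlap (Bmp7 from 9.62, Bmp5 up to 7.83 CPM per kb). Spheroid GFP+ cells had Bmp4 (19.0), Bmpr1a (16.8), Bmp7 (9.24), Bmp5 (5.51) and Bmpr2 (3.25) first, with all neighbours overlapping. In spheroid RFP+ cells Bmpr1a (17.8) led, without overlap with Bmp7 (5.52), next by mean, and Bmp4 (4.4), Bmp5 (3.50) and Bmpr2 (2.75) followed. Its lowest well, at 12.5 CPM per kb, was below the highest Bmp4 well at 20.2.

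**Figure D4:**
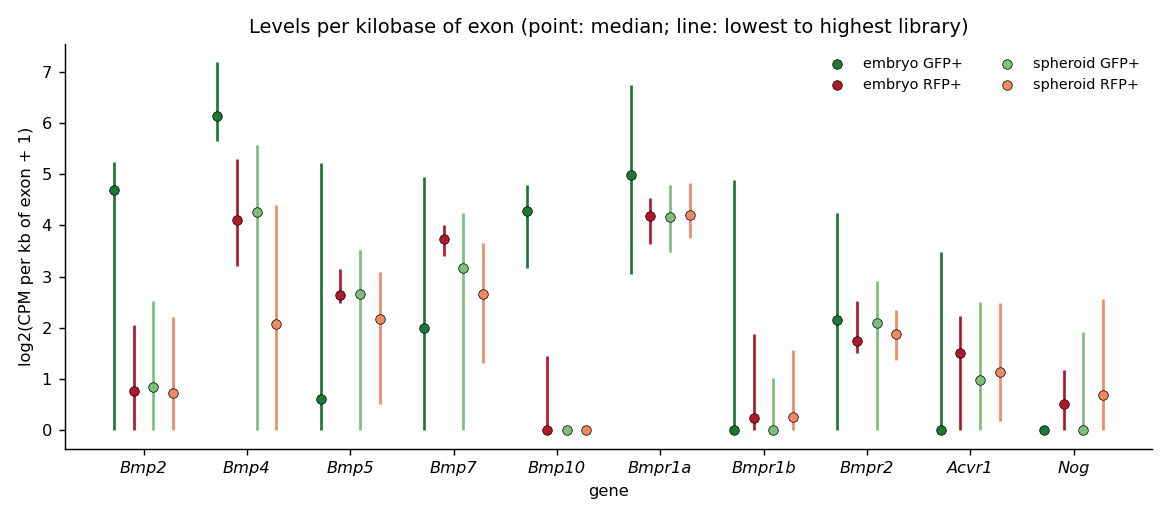
Level of each gene as log2(CPM per kb of exon + 1) in the 4 groups, with a point at the median and a line from the lowest to the highest library. Bmp4 in embryo GFP+ cells has the highest median, 69.4 CPM per kb, and Bmpr1a stays within a narrow range in spheroids.

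Across single spheroid wells the correlations between members were low. Over 83 wells without C9, with each population centred on its mean, the 36 pairs of the 9 genes with reads had correlations of log2 CPM between −0.22 and 0.27, the highest between Bmp4 and Bmp5, as a description of wells that share plates and depth. Few reads per well also lower a correlation: Bmpr1b was at 0 in 28 and Nog in 24 of these 37 GFP+ wells. Whether members varied independently was not tested, and neither these values nor those below were set against other pairs of genes. Genes most like the 3 members with the highest mean CPM were also only weakly like them: Rcbtb1, Prkar2a and Eif4g2 for Bmpr1a (r of 0.42, 0.41 and 0.40), Myh10, Bzw2 and Slc38a4 for Bmpr2 (0.44, 0.43 and 0.42), and Homez, Cyth2 and Thop1 for Bmp7 (0.43, 0.42 and 0.42). The names changed with the setting: by Spearman's rho Aga came first for Bmpr1a (0.41) and Apoe for Bmp7 (0.39), with near-identical wells counted once Prkar2a (0.43) and Klk8 (0.44) did, and Myh10 came first for Bmpr2 in each. Relative to the mean, the SD among these wells was 58.4% for Bmp4 in GFP+ and 95.8% in RFP+ cells, about 39% for Bmp7 in both (39.4% and 38.9%), and 22% and 20.7% for Bmpr1a.

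Among 60 other genes of the pathway, 24 were tested in embryos and 3 were called, which are Id2, Id3 and Pcsk6, where 10.1% of all genes tested were called. Id2 and Id3 encode inhibitors of bHLH factors and are BMP targets, and both were called in the same direction in both sources. Id2 was higher in GFP+ cells, at 1339 ± 202 CPM (SD, n = 5) against 622 ± 131 (n = 4) in embryos (log2 fold change −1.16, edgeR, adjusted p = 0.00659) and −0.77 in spheroids (adjusted p = 2.2e-09). Id3 was higher in RFP+ cells, by 1.68 in embryos (edgeR, adjusted p = 0.0303) and 0.57 in spheroids (adjusted p = 2.0e-09). Pcsk6, a protease that processes ligand precursors, was higher in embryo RFP+ cells (5.17, edgeR, adjusted p = 0.0248), at 15 CPM against 0.26, and fell under the filter in spheroids.

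Spheroids had 28 of the 60 genes tested and 25 called, 12 with RFP+ cells higher and 13 with GFP+ cells higher, with a median log2 fold change of 0.12. These counts and those by list below stand against 77.9% of all genes tested that were called in spheroids, 37.8% with RFP+ and 40.1% with GFP+ cells higher. Secreted antagonists and modulators other than Nog (18 genes) had 8 tested, of which RFP+ cells were higher for 5 and GFP+ cells for 2. The largest changes there were Smoc1, a matricellular BMP modulator (log2 fold change 3.00, edgeR, adjusted p = 9.7e-37), Fst, which encodes follistatin (2.67, adjusted p = 1.8e-32), and Cer1, a secreted Nodal and BMP inhibitor (2.17, adjusted p = 2.0e-06), all higher in RFP+ cells. Fst stood at 185 ± 41.3 CPM (SD, n = 46) in RFP+ and 29.5 ± 18.4 (n = 38) in GFP+ wells. Cer1 was uneven in GFP+ wells, read in 14 of 38 at a mean of 19.9 ± 50.8 CPM (SD). In embryos, Fst (2.60, SE 1.70) and Smoc1 (3.14, SE 1.82) did not pass the test, and Cer1 had no read in any library.

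Inhibitors at the receptor or inside the cell (6 genes) had 5 tested in spheroids, with 4 calls toward GFP+ and 1 toward RFP+ cells, and none of the 5 tested in embryos called. Other receptors and co-receptors (8 genes) had 6 tested in spheroids, with 2 calls toward RFP+ and 3 toward GFP+ cells. Signal transducers (4 genes) had 3 tested, with 1 call in each direction, ligand processing (5 genes) 2 tested and both higher in RFP+ cells, and targets (6 genes) 4 tested with 1 call toward RFP+ and 3 toward GFP+ cells. Msx2, a homeobox target of BMP, had the largest log2 fold change of the 28 genes tested in spheroids (−3.57, SE 0.31; edgeR, adjusted p = 2.9e-19), at 30.4 CPM in GFP+ and 2.57 in RFP+ wells, and did not pass in embryos (1.19, SE 1.65). None of the 13 other ligands passed the filter in either source. Between sources, GFP+ cells had 32 of the 60 genes tested and 21 called, 11 of them higher in spheroids, and RFP+ cells had 35 tested and 19 called, 7 of them higher in spheroids. Over all genes tested, 68% were called in GFP+ and 42.6% in RFP+ cells.

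**Figure D5:**
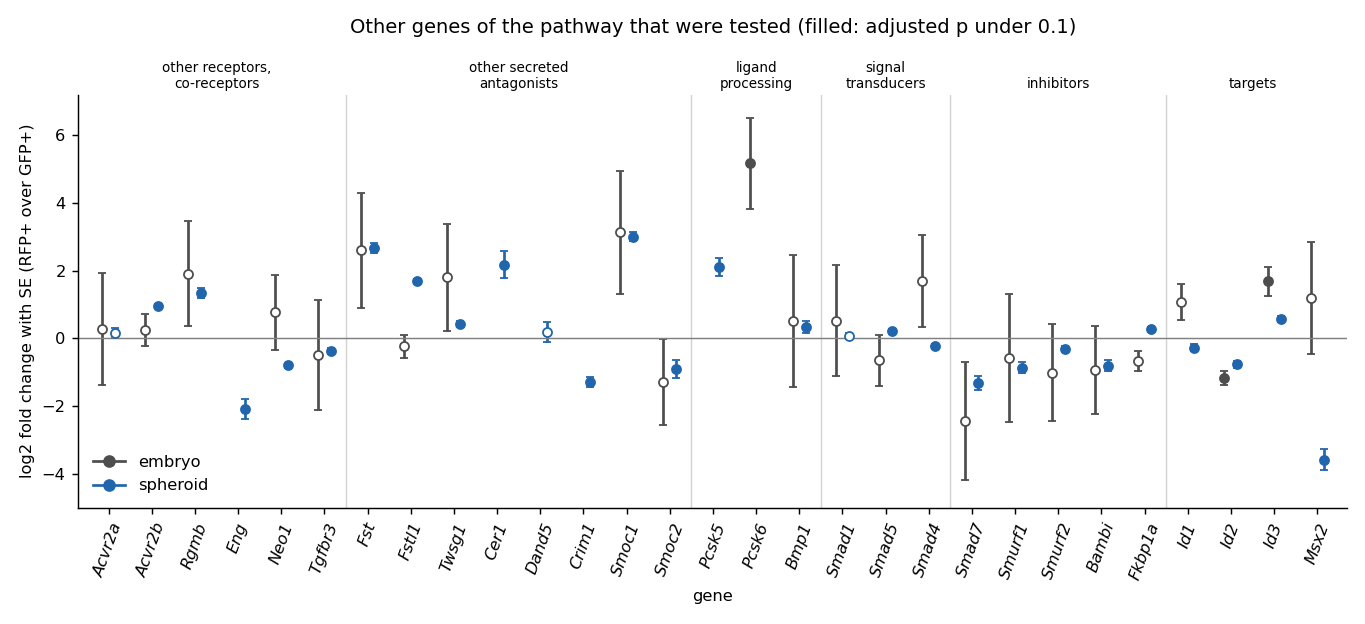
Log2 fold change of RFP+ over GFP+ cells with its SE for the other genes of the pathway that were tested, by list, in embryos (grey) and spheroids (blue), with filled points for adjusted p under 0.1. Fst and Smoc1 lie above 2 in both sources but are called only in spheroids, Id2 and Id3 are called in both, and Msx2 is lowest in spheroids at −3.57.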

How the data were processed

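Before deposit, the authors had cleaned reads in Trimmomatic 0.36, aligned the rest to the mm10 build by HISAT2 2.0.4 and assigned alignments to genes by featureCounts 1.5.2 of Subread. The deposited values are raw counts for 93 libraries, without molecular identifiers, so floors cover counting error only. Groups were taken from the sample labels. Tests used edgeR 4.0.16 under R 4.3.3 (TMM, filterByExpr with a minimum count of 10 and a minimum total of 15, quasi-likelihood F-test, Benjamini-Hochberg adjustment over all genes tested, called under 0.1). Each comparison was fitted on its 2 groups alone, and separate log2 fold changes were subtracted to test their difference. Single genes were tested on log2 CPM (prior count 2) by two-sided permutation, exact in embryos and with 100000 resamples otherwise, unadjusted over the 10 genes. DESeq2 1.42.0 and limma 3.58.1 (voom) served as alternatives. The edgeR fits of each comparison were tested on simulated counts; the alternatives were not. Exon lengths came from GENCODE M21 on GRCm38. The genes and lists were chosen with earlier results of these data known. Named were all 10 genes, pathway genes called in both sources, the 4 called with the largest change per source, and, for the 3 genes with the highest spheroid CPM, the 3 most correlated genes. The voom fits, the comparisons of sources by permutation and the permutation tests without C9 were added after the data had been seen.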

Additional observations from a re-analysis of the deposited data

Results flagged for a closer look

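In embryo groups, 4 of the 19 sets of values for a gene in a group had a library farther from the rest than Dixon's 95% limit. Chance gives about 1 in 20 for normal values, a rate that does not hold for genes mostly at 0, and where all other libraries are at 0 any read passes the limit. Bmp10 was at 7.73 CPM in embryo RFP+ well G11 and at 0 in the other 3. Bmpr1b was at 170 CPM in embryo GFP+ well D12 and at 0 in the other 4, and at 16.0 CPM in embryo RFP+ well F12, where the next library held 2.11. Acvr1 was at 49.3 CPM in embryo GFP+ well B12, where the next library held 0.934.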

How the results depend on the processing

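In embryos 2 members were called, and 0 at an adjusted p under 0.05, 1 (Bmp10) without the filter on low counts, 7 in a single fit over the 4 groups, 3 by DESeq2, and 0 to 2 when single libraries were left out. Spheroid calls numbered 4, with 7 by DESeq2, whose count over all genes in spheroids is not given here. GFP+ cells between sources gave 6, with 3 by voom and 5 to 6 without single libraries. The difference between sources gave 0, with 4 by the interaction term and 2 by voom, both of which tested more members, and 0 without any single library. RFP+ cells between sources gave 2 to 3 calls throughout. Over all genes, embryo calls rose from 858 to 2000 without the filter, 1945 by DESeq2, 7115 in the single fit and 2271 by voom; spheroid calls from 7747 to 13109 without the filter; calls between sources changed by voom from 8036 to 2291 (GFP+) and from 4745 to 2125 (RFP+); and the difference went from 465 to 6889 by the interaction term, 1422 by voom, 706 without B12 and 267 without G11. The cause of these changes was not tested.

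None of the log2 fold changes that were called turned sign under edgeR or DESeq2; voom turned the called values of Bmp5 (1.92) and Bmpr2 (0.51) in GFP+ cells between sources, and otherwise signs turned for values that had not been called. These were, in embryos, Bmp7 with DESeq2 size factors (−0.039), by DESeq2 (−0.038) and without A12, C12, D12 or H11 (−0.23 to 0.90 over single libraries left out), and Bmp5 by voom (1.92). In GFP+ cells between sources they were Bmp7 by voom (1.02) and without B12 or E12 (−0.44 to 0.58), and Acvr1 by voom (1.02) and without B12 (−1.03 to 3.99). In RFP+ cells between sources they were Bmp2 by voom (0.25) and without G11 (−0.98 to 0.67), Acvr1 by voom (0.20) and without H11 (−0.68 to 0.29), Bmpr1a without F12 or G12 (−0.10 to 0.21), Bmpr1b without F12 (−1.52 to 1.41) and Bmpr2 without G11 (−0.22 to 0.31). For the difference they were Bmp5 by voom (−2.59) and without E12 (−0.083 to 0.99), Bmpr2 by voom (−0.31), and Bmp4 without B12, C12 or G11 (−0.33 to 0.46). The permutation difference of Bmpr1b in embryos turned with a prior count of 0.5 (0.37). All 53 alternative values in spheroids kept direction and side of the threshold. No paired analysis was possible because the groups share no replicate number; plate row, which spheroid wells of both populations share, was fitted as a covariate and gave 4 calls. Pools of 10 cells and 4 or 5 embryo libraries limit what can be detected, and genes with a few reads, such as Nog, were near the floor.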
